A study of Mus musculus with 11 samples.

Results

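The genes of iron uptake, iron storage and heme breakdown were followed in epididymal white adipose tissue (eWAT), the fat pad beside the epididymis of male mice. The list held 10 genes, Tfr2, Tfrc, Hmox1, Fth1, Ftl1, Slc40a1, Trf, Slc11a1, Slc11a2 and Steap4, matched by symbol. Of these, 9 were among the 15453 genes of the tables, and Ftl1 is not analysed here. The list was chosen by hand with the WT and pKO values of these same mice already known. The genotype differences of its members are therefore a description, and their p-values, from a fit over all genes, are no independent support.

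The libraries came from 11 mice 16 weeks old of the strain labelled C57BL/6, which the methods of the study give as C57BL/6J, 6 wildtype (WT) and 5 that inherited an inactivated Mest allele from the father (pKO). Mest (mesoderm specific transcript) is imprinted and expressed from the paternal allele, and it encodes a protein of the hydrolase fold family. The inactivated allele lacks exon 3 in every tissue, made with a Cre driver active in the early embryo, so adipocytes, macrophages and other cells carried the same deletion. Both genotypes ate a diet high in fat from week 8 to week 16, and no mice on a standard diet are part of the comparison. The mice were selected by the study from a larger cohort, with 1 mouse per library. Whole fat pad RNA went into serial analysis of gene expression (SAGE), which counts a short tag at the 3'-most NlaIII site of each transcript. Values are tags scaled by a factor for library size and are called normalized tags, and libraries held 9659740 to 14825727 tags (WT) and 11320342 to 14626803 tags (pKO). Because each transcript gives 1 tag whatever its length, transcript length does not enter a comparison of normalized tags between genes. Other differences between genes in how tags are made and mapped were not assessed.

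Iron travels in plasma bound to transferrin (Trf) and enters cells with the transferrin receptor (Tfrc), while the second receptor (Tfr2) acts in the liver and in red cell precursors as a sensor of iron-loaded transferrin. Inside the cell, ferric iron is reduced by STEAP enzymes such as Steap4 and leaves the endosome through the divalent metal transporters Slc11a2 and, in phagocytes, Slc11a1. It is then used, stored in ferritin (Fth1 and Ftl1) or exported through ferroportin (Slc40a1). Heme oxygenase 1 (Hmox1) frees iron from heme, and macrophages of adipose tissue, as of spleen, take up and recycle iron. Iron regulatory proteins bind hairpins in several of these mRNAs when iron is scarce, which protects the Tfrc mRNA from decay and holds back translation of ferritin and ferroportin.

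The tags predicted for the genes with the widest differences are shown first. Which tags the authors counted is not given in the sources used here. The predicted tags were read from GENCODE M21 transcripts on GRCm38 (mm10), 25 bases from the last NlaIII site, with the site CATG in capitals. A site with fewer than 25 bases left to the transcript end was passed over, which among the members moved the tag of Slc11a2 only. The tag of Slc11a1 is shown because it is not particular to that gene.
Tfr2: CATGagctacggtatgtgagcagcc
Tfrc: CATGacctttactgtgttagctttt
Hmox1: CATGgccactttgatatccgtttcc
Fth1: CATGtcaggctgccttcatcttttc
Slc40a1: CATGcattgctgtgagcactttctt
Slc11a1: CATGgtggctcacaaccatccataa
All of these sites lay in the 3' UTR of the last exon. The Tfr2 tag was at chr5:137587404-137587428 on the plus strand in exon 19, and the Tfrc tag at chr16:32632640-32632664 on the plus strand in exon 19. Hmox1 was tagged at chr8:75100358-75100382 on the plus strand, in exon 5. The Fth1 tag lay at chr19:9984994-9985018 on the plus strand in exon 5, and that of Slc40a1 at chr1:45908272-45908296 on the minus strand in exon 8. None of these 5 tags occurred at an NlaIII site of another annotated gene. The Slc11a1 tag, at chr1:74385959-74385983 on the plus strand in exon 15, was also the last tag of 13 other genes and occurred at some NlaIII site of 30 other genes. The annotation and the rule for shared tags that the authors used are not given in the sources used here, so the count of Slc11a1 is uncertain. Several members have annotated coding transcripts that end in other tags, and which of these were added up is likewise not given. The tag read here ended 1 of 6 coding transcripts of Slc11a2 and of Trf, 1 of 4 of Slc40a1, 2 of 5 of Fth1, 1 of 2 of Tfrc and of Slc11a1, and 5 of 6 of Tfr2. Hmox1 and Steap4 have 1 coding transcript each.

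Iron-responsive elements, the hairpins bound by the iron regulatory proteins, were searched in the UTRs of the members in the sense of the transcript. The search asked for a C, then 5 bases, the loop CAGTGN in which N is any base, and 5 further bases that pair with the first 5, with G-T pairs allowed. Such an element was found in 3 of the 9 members, Tfrc, Fth1 and Slc40a1, and in 160 of 21877 annotated coding genes, or 0.731%. The loop is in capitals.
Fth1 5' UTR: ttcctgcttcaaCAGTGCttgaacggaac
Slc40a1 5' UTR: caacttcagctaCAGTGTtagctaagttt
Tfrc 3' UTR, element 1: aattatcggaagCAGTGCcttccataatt
Tfrc 3' UTR, element 2: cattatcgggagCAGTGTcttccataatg
Tfrc 3' UTR, element 3: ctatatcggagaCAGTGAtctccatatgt
Tfrc 3' UTR, element 4: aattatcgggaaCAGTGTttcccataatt
The Fth1 element was at chr19:9982732-9982760 on the plus strand and the Slc40a1 element at chr1:45925465-45925493 on the minus strand. The 4 Tfrc elements lay between chr16:32631219-32631247 and chr16:32631710-32631738 in exon 19, all upstream of the predicted tag. A match is a description of these letters, and no match in the other 6 members says only that this pattern is not in their annotated UTRs. The stem of the pattern has 5 unbroken pairs. An element with an unpaired base in that stem, in Slc11a2 or another member, would be missed. The plot of NlaIII sites along the transcripts shows where tags and elements fall.

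**Figure D1:**
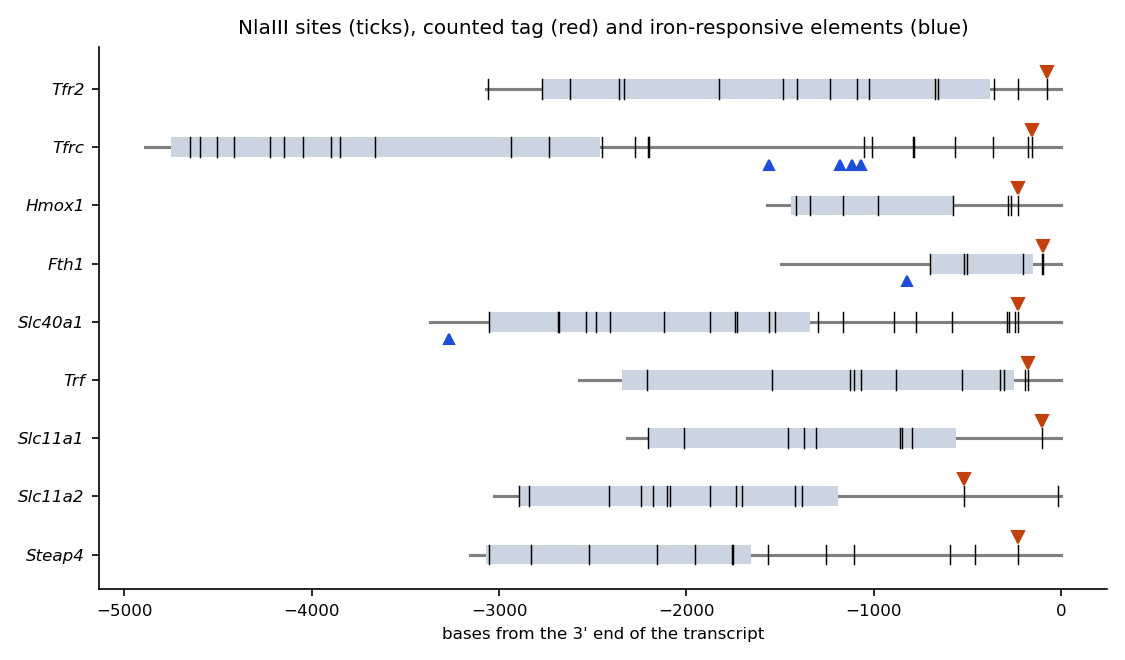
Principal GENCODE transcript of each of the 9 genes, drawn by distance in bases from its 3' end, with the coding part as a bar and NlaIII sites as ticks. The tag predicted to be counted is a red triangle, and matches to the iron-responsive element pattern are blue triangles. The predicted tag lies in the 3' UTR of every gene, and matches are drawn for Tfrc (4), Fth1 (1) and Slc40a1 (1). In Slc11a2 a later site too near the transcript end was passed over.

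Mest was read first as a check of the labels. Its values were 25107 ± 2672 normalized tags in the 6 WT mice and 1663 ± 566 in the 5 pKO mice (mean ± SD). WT mice spanned 20756 to 27897 and pKO mice 793 to 2275, and every mouse stood with its label. The tag predicted for Mest lies in exon 12 of the annotated transcript and outside the deleted exon 3. A count of that tag follows the level of the Mest transcript and not the deletion itself.

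Levels of the iron genes spanned about 4 orders of magnitude in WT eWAT. Trf had 27698 ± 9227 normalized tags (SD, n = 6) and Fth1, the heavy chain of ferritin that oxidises iron for storage, 24132 ± 5224, with ranges that overlapped. Steap4 followed at 2738 ± 337, and Tfrc at 584 ± 270 overlapped Hmox1 at 450 ± 99.6. Slc40a1 stood at 240 ± 39.1, above Tfr2 at 135 ± 24.0 and Slc11a2 at 124 ± 11.9, which overlapped each other. Slc11a1 was last at 2.82 ± 2.22, with no more than 3 tags in 4 of the 6 WT mice, a number at which nothing can be read from a single library. In pKO mice Tfr2 stood below Slc11a2 in the order of the means, at 49.8 against 122, with ranges apart. The 9 genes together took 0.461% ± 0.0958 of all tags in the 6 WT mice and 0.580% ± 0.121 in the 5 pKO mice (mean ± SD), nearly all of them Trf and Fth1.

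Between genotypes, Tfr2 and Slc40a1 were lower and Tfrc and Fth1 higher in pKO mice at an unadjusted p of at most 0.05 in limma. Hmox1, Trf, Slc11a2 and Steap4 did not reach that threshold, and Slc11a1 was below the minimum of 50 normalized tags, as the mean of either genotype, needed for a count. That minimum was met by 8 of the 9 members, Tfr2 only through its WT mean. The 2 members lower in pKO mice stand beside 5.77% of all 9906 genes with that mean, and the 2 higher ones beside 4.85%. Scaled to the library total instead, the counts over all genes shifted from 572 lower and 480 higher to 737 lower and 330 higher, and among the members only Fth1 lost its count. At an adjusted p of at most 0.1, the stricter rule, 0 members were counted by limma or by edgeR and 1, Tfr2, by DESeq2. By that rule limma and edgeR each counted 0.0404% of the genes as lower and 0.0101% as higher, and DESeq2 counted 0.636% as lower and 0.586% as higher. Tfr2 was also the 1 member whose pKO values all lay under its WT values, as 0.717% of the genes did. No member had all pKO values above all WT values, which held for 0.717% of the genes.

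**Figure D2:**
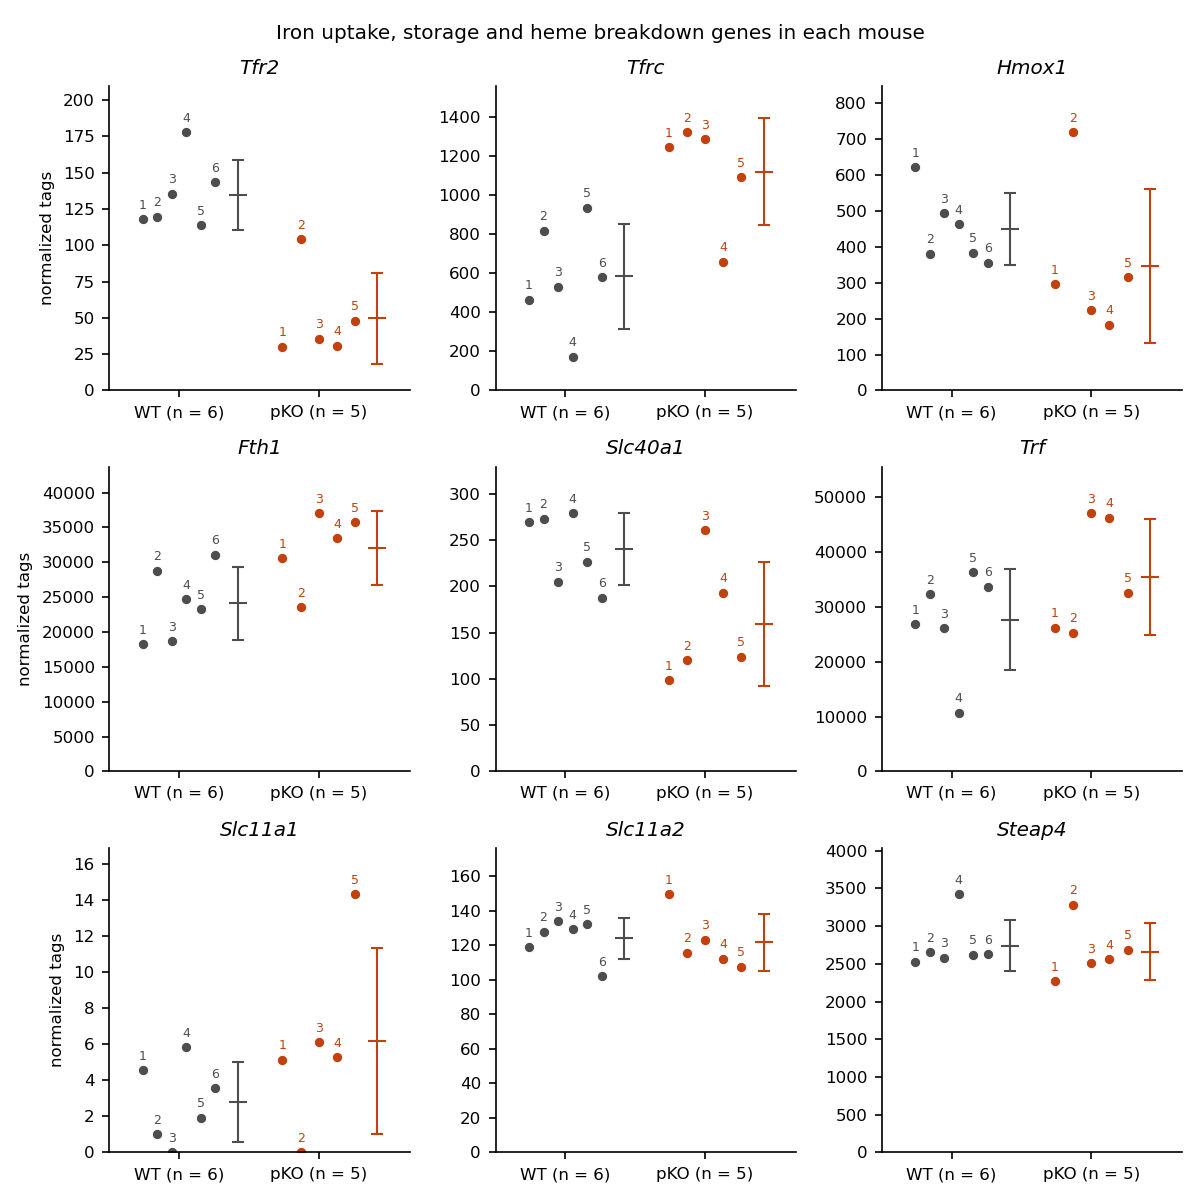
Normalized tags (vertical axes, linear from 0) of the 9 iron genes in each WT (grey, n = 6) and pKO (orange, n = 5) mouse, numbered by replicate, with the mean and SD beside the points. The Tfr2 values of the genotypes are apart, and pKO replicate 2 is the highest pKO mouse for Tfr2 (104) and Hmox1 (719).

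Of the receptors, Tfr2, which had a lower mean than Tfrc in both genotypes, was the member with the widest difference. WT mice ran from 114 to 178 normalized tags with a median of 128. The pKO mice had 30.0, 104, 35.6, 30.9 and 48.1 in replicates 1 to 5. All 5 lay under the lowest WT mouse, and replicate 2 stood nearest to it. The log2 fold change, coded pKO minus WT throughout, was -1.57 (SE 0.28, 95% interval -2.18 to -0.96, adjusted p = 0.118 in limma). Without pKO replicate 2 it was -1.88 with an adjusted p of 0.00215, and over all 19 alternative fits it ran from -1.88 to -1.38 with adjusted p-values between 0.00206 and 0.572. Tfr2 lies at chr5:137569840-137587481 on GRCm38.

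Tfrc, at chr16:32608920-32632794, went the other way. WT mice had 174 to 936 normalized tags with a median of 556, and the pKO mice had 1247, 1323, 1287, 659 and 1092. In 4 of the 5 pKO mice Tfrc was above every WT mouse, and replicate 4 lay inside the WT range. The mean was 1.92 times the WT mean, with a log2 fold change of 1.07 (SE 0.36, interval 0.31 to 1.84, adjusted p = 0.385). WT replicate 4, with 174, was far under the other WT mice, and without it the log2 fold change was 0.76. As a result, Tfrc tags per Tfr2 tag, a ratio taken after the values were seen, ran from 0.978 to 8.22 in WT and from 12.7 to 41.5 in pKO mice. The median ratio was 3.99 in WT and 22.7 in pKO mice, and the lowest WT ratio was that of replicate 4. Since the Tfr2 ranges were already apart and Tfrc went the other way, the gap between these ratios is no separate result.

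Trf, the ligand of both receptors and at chr9:103204001-103230444, was not distinguished between genotypes. WT mice spanned 10706 to 36407 with a median of 29611, and pKO mice had 26215, 25283, 47090, 46310 and 32653. Replicates 3 and 4 of the pKO mice were above every WT mouse, and the other 3 lay within the WT range. The log2 fold change was 0.41 (SE 0.30, interval -0.23 to 1.04, adjusted p = 0.689 in limma). WT replicate 4 was again the lowest mouse, and without it the log2 fold change was 0.15.

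Among the reductase and the importers, Steap4 and Slc11a2 had the narrowest intervals of all members. Steap4, at chr5:7960457-7982213, encodes an endosomal and cell surface metalloreductase. It had 2528 to 3419 normalized tags in WT mice with a median of 2623, and 2269, 3281, 2505, 2564 and 2689 in pKO mice. The fitted log2 fold change was -0.04 (interval -0.31 to 0.23). For Slc11a2, the main divalent metal transporter at chr15:100387898-100425072, WT mice had 102 to 134 with a median of 129, and pKO mice 149, 116, 123, 112 and 107. Its log2 fold change was -0.03 (interval -0.33 to 0.27). These intervals leave out a difference of the size fitted for Tfr2, Slc40a1 or Tfrc. Slc11a1, the phagosomal transporter at chr1:74375195-74386062, gave 0 to 6 tags per WT mouse and 0 to 14 per pKO mouse, and with all mice no difference could be detected at this depth (log2 fold change 0.74, interval -0.69 to 2.18). Without pKO replicate 2, which had 0 tags, the log2 fold change was 1.34 with an unadjusted p of 0.0292 in limma.

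The storage and export genes differed in opposite directions. Fth1, at chr19:9980598-9985098, had 18218 to 31103 normalized tags in WT mice with a median of 24022, and 30588, 23541, 37009, 33430 and 35713 in pKO mice. Replicates 3, 4 and 5 were above every WT mouse, and replicates 1 and 2 lay within the WT range. The log2 fold change was 0.42 (SE 0.18, interval 0.04 to 0.80, unadjusted p = 0.0329 and adjusted p = 0.486 in limma). Fth1 is the member whose count was least firm. Its unadjusted p was above 0.05 without WT replicate 1, 3 or 5 or without pKO replicate 3, 4 or 5, with values of 0.0513 to 0.0799, and 0.0546 with total-count scaling.

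Slc40a1, which encodes ferroportin, the only known iron exporter of mammalian cells, lies at chr1:45908068-45926523. WT mice had 188 to 279 normalized tags with a median of 248, and pKO mice had 98.7, 120, 260, 193 and 124. Replicates 1, 2 and 5 were under every WT mouse, and replicates 3 and 4 were inside the WT range. The log2 fold change was -0.67 (SE 0.23, interval -1.16 to -0.17, adjusted p = 0.412 in limma). With each mouse left out in turn it lay between -0.86 and -0.52, and the unadjusted p was at or below 0.0374.

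Hmox1, at chr8:75093621-75100589, breaks heme down to biliverdin, carbon monoxide and iron. WT mice had 356 to 621 normalized tags with a median of 423. The pKO mice had 296, 719, 224, 183 and 315, so 4 were under every WT mouse and replicate 2 was above every WT mouse. With all mice the log2 fold change was -0.52 (SE 0.29, interval -1.14 to 0.10, unadjusted p = 0.0928 and adjusted p = 0.585). Without pKO replicate 2 the mean of the other 4 pKO mice was 254 ± 61.9 (SD, n = 4), the log2 fold change -0.83 and the unadjusted p 0.00122, with an adjusted p of 0.120. The side of the threshold on which Hmox1 fell was thus decided by 1 mouse. Tfr2 and Hmox1 were both highest in that mouse among pKO mice, as were Tfrc and Steap4, while Fth1, Trf and Slc11a1 were lowest in it.

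**Figure D3:**
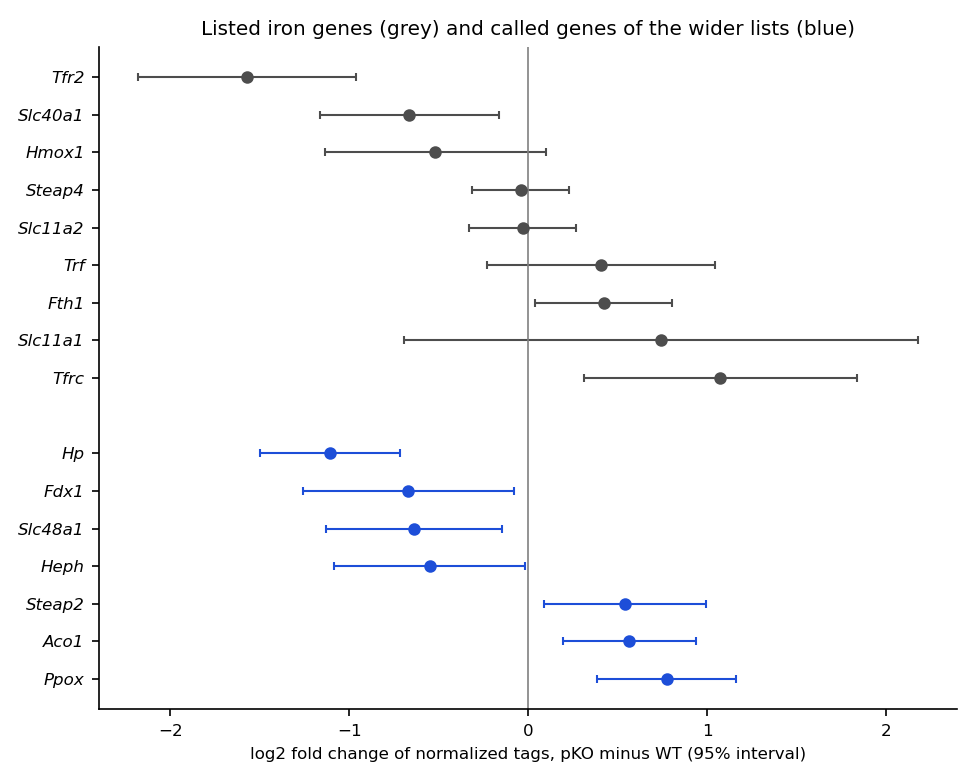
Log2 fold change of normalized tags, pKO minus WT (horizontal axis), with its 95% interval from limma, for the 9 iron genes (grey) and the 7 counted genes of the wider iron and heme lists (blue). The intervals of Tfr2, Slc40a1, Fth1 and Tfrc leave out 0, and those of Hmox1, Steap4, Slc11a2, Trf and Slc11a1 hold it.

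The genes whose deviations over the 11 mice came closest to those of Tfr2 were 9030619P08Rik, Ubd and Otop1. The mean absolute difference from Tfr2 was 0.296, 0.320 and 0.330 on the log2 scale, beside a median of 0.856 over 9905 genes. All 3 had lower means in pKO mice, at 128 against 261 for 9030619P08Rik, 1174 against 2914 for Ubd, a ubiquitin-like protein, and 60.0 against 127 for Otop1, a proton channel. Nearest to Hmox1 were Dera, Lipa and Ece2, at 0.196, 0.205 and 0.210 beside a median of 0.519. Lipa, the acid lipase of the lysosome, had 1904 ± 264 in the 6 WT mice and 1272 ± 526 in the 5 pKO mice (mean ± SD). The likeness includes the difference between genotypes and is a description over 11 mice.

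The other genes of iron and heme handling were taken from 6 wider lists with 75 genes, of which 64 were in the tables and 53 reached the minimum mean. At an unadjusted p of at most 0.05, 4 of the 53 were lower and 3 higher in pKO mice, with 46 not counted, again beside 5.77% and 4.85% of all genes. The median log2 fold change of the 53 was 0.03, and that of all 9906 genes 0.01.

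In the list of heme capture and breakdown, 2 of 8 genes were lower and none higher. Hp, which encodes haptoglobin, the scavenger of free hemoglobin, was the most abundant of all listed genes. It ran from 73864 to 131990 normalized tags in WT and from 37471 to 58583 in pKO mice. The Hp log2 fold change was -1.11 (SE 0.18, adjusted p = 0.0947 in limma), and no other listed gene had an adjusted p at or below 0.1 in that fit. At that rule no wider gene was counted as lower with total-count scaling, a pseudocount of 10 or the replicate block. With a mouse left out, 1 was counted as lower only without WT replicate 5 or pKO replicate 2 or 4. DESeq2 counted 1 wider gene as lower and 1 as higher. Slc48a1, which moves heme out of the lysosome, had 2619 ± 334 in the 6 WT mice and 1794 ± 774 in the 5 pKO mice (mean ± SD), at a log2 fold change of -0.64 (SE 0.23, adjusted p = 0.423). In pKO mice, 3 values of 1366, 1305 and 1084 lay under every WT mouse, and 2336 and 2879 lay within the WT range.

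In heme synthesis 1 of 8 genes was higher and none lower. That gene was Ppox, which met the minimum mean only through the pKO mice, where it was high. Ppox, the mitochondrial enzyme that makes protoporphyrin, had 35.9 to 57.0 normalized tags in WT mice and 60.0 to 86.0 in pKO ones. These ranges did not overlap, which held in this direction for 0.717% of all 9906 genes with the minimum mean. The Ppox log2 fold change was 0.77 (SE 0.18, adjusted p = 0.268 in limma). Alas1, the first enzyme of the pathway and its most abundant gene, had 2121, 4528, 2977, 2116 and 2032 in pKO mice against 3044 to 4121 in WT mice. Replicate 2 was above and the other 4 pKO mice were under every WT mouse, the same arrangement of mice as in Hmox1. The Alas1 log2 fold change was -0.36 (SE 0.20, adjusted p = 0.577), and the gene was counted as lower without pKO replicate 2 and with total-count scaling.

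Of the sensors of iron, 1 of 5 was higher. Aco1, which encodes iron regulatory protein 1, had 196 to 378 normalized tags in WT mice and 401 to 569 in pKO ones. Every pKO mouse lay above every WT mouse, as in 0.717% of the genes (log2 fold change 0.56, SE 0.17, adjusted p = 0.370). Fbxl5, the iron-binding subunit that marks iron regulatory protein 2 for decay and the most abundant of the list, had 874 ± 128 (SD, n = 6) and 865 ± 148 (SD, n = 5), with a log2 fold change of -0.02.

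In uptake and transfer 1 of 10 genes was higher. Steap2, a reductase of the family of Steap4, had 97.2 ± 20.0 in the 6 WT mice and 144 ± 41.0 in the 5 pKO mice (mean ± SD, log2 fold change 0.54, SE 0.21, adjusted p = 0.455). Steap2 was not counted without WT replicate 1 or without pKO replicate 1 or 4. Pcbp2, a chaperone that hands iron to ferritin and the most abundant of the list, had a log2 fold change of 0.11 (SE 0.14). In export and hormone 1 of 4 genes was lower, Heph, the ferroxidase hephaestin that works with ferroportin. It had 294 ± 33.0 in the 6 WT mice and 214 ± 79.7 in the 5 pKO mice (mean ± SD, log2 fold change -0.55, SE 0.25, adjusted p = 0.513). Neo1, a co-receptor in the control of hepcidin, had a log2 fold change of 0.06 (SE 0.16).

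Of 18 mitochondrial iron and iron-sulfur genes, 1 was lower and none higher. This was Fdx1, a ferredoxin that passes electrons to mitochondrial enzymes, with 418 ± 65.3 in the 6 WT mice and 287 ± 133 in the 5 pKO mice (mean ± SD, log2 fold change -0.67, SE 0.27, adjusted p = 0.467). Fdx1 and Heph were not counted by edgeR or DESeq2, nor without WT replicate 4 or 6 or pKO replicate 1. Fdx1 was also not counted without pKO replicate 4 or with the replicate number as a block, and Heph not without WT replicate 1, 2 or 3 or pKO replicate 5. Hspa9, the chaperone of iron-sulfur assembly and the most abundant of the list, had 5181 ± 419 (SD, n = 6) and 5276 ± 370 (SD, n = 5).

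**Figure D4:**
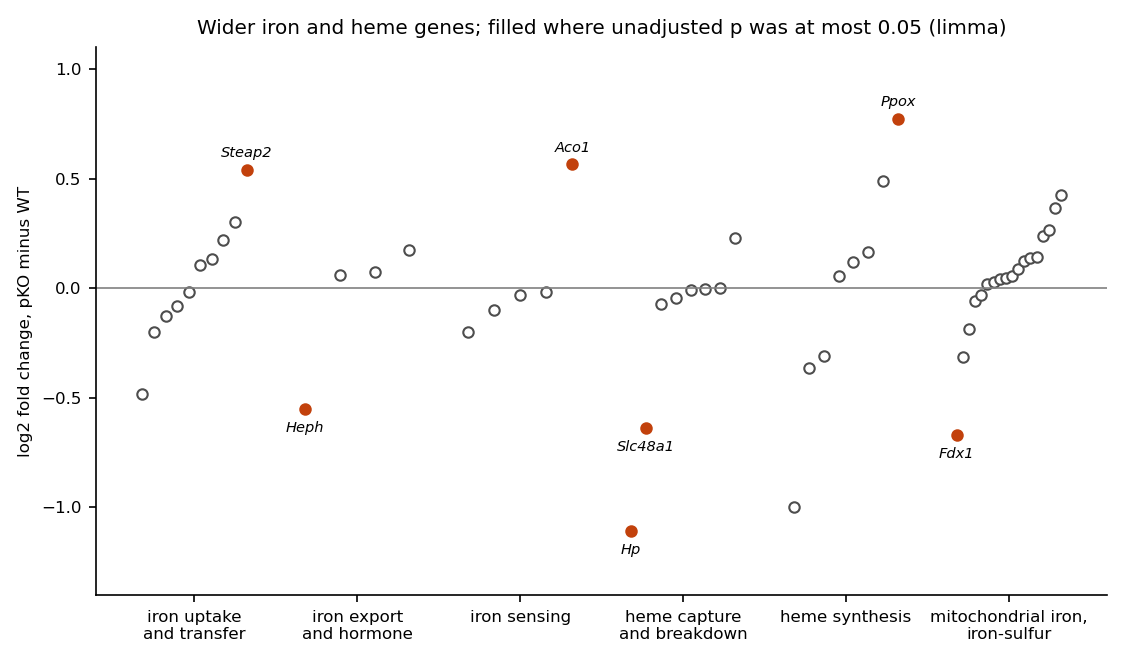
Log2 fold change, pKO minus WT (vertical axis), of the 53 wider iron and heme genes that reached the minimum mean, 1 point per gene in 6 lists. Filled points mark the 4 lower and 3 higher genes (unadjusted p at or below 0.05), and the median over all 53 was 0.03.

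In bulk tissue, fewer cells of a type and less RNA per cell cannot be told apart, and marker lists are therefore given beside the iron genes. Markers here and in the paragraphs that follow were counted at an unadjusted p of at most 0.05 in limma. By that rule 5.77% of all 9906 genes were lower and 4.85% higher in pKO mice. Of 16 macrophage markers, 14 had a mean of at least 50, and 7 were lower and none higher in pKO mice. Their summed level was 12625 to 23423 in WT and 9995 to 15795 in pKO mice, and no marker was at 0 in every mouse. The most abundant, Ctss, had 4334 ± 1212 in the 6 WT mice and 2857 ± 348 in the 5 pKO mice (mean ± SD), and Gpnmb had 3674 ± 742 and 2060 ± 992. Emr1, the gene of F4/80, had 856 ± 151 and 865 ± 271. Slc40a1, Hmox1, Hp and Slc48a1 had lower means in pKO mice. Cd163 of the heme capture list, at 593 and 671, and Slc11a1, at 2.82 and 6.18, had higher ones. The part of macrophages in these levels was not tested. In pKO replicate 2 the macrophage sum was 14929, beside 9995 to 15795 in the other pKO mice. The part of macrophages in its Hmox1 level was not tested either.

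Of 5 red blood cell markers in the tables, 3 had a mean of at least 50 and 2 of these were higher in pKO mice. Hba-a1 had 318 ± 137 in the 6 WT mice and 525 ± 201 in the 5 pKO mice (mean ± SD), and Hba-a2 260 ± 103 and 439 ± 180. The sum of the list was 385 to 970 in WT and 661 to 1667 in pKO mice, while Slc4a1 was at 2.27 and 4.04. Tfrc is abundant in red cell precursors, and the part of red cells in its level was not tested. Of 8 hepatocyte markers in the tables, 5 had means under 10 in both genotypes, namely Apoa2, Ttr, Fgb, Apoh and Tat. The most abundant of the list was Alb, at 310 ± 148 in the 6 WT mice and 941 ± 408 in the 5 pKO mice (mean ± SD). By WT mean Serpina1a came next, with 11.7 (WT) and 7.36 (pKO), and then Ahsg, with 10.3 and 7.70. The part of liver RNA in the Tfr2 level was not tested.

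The tissue was fat by its markers, with Fabp4 at 655817 and Adipoq at 65204 normalized tags as WT means and 698530 and 74798 as pKO means. Of 12 adipocyte markers 2 were higher and none lower in pKO mice, again beside 4.85% and 5.77% of all genes. Their sum ran from 706624 to 1117900 in WT and from 763932 to 1134530 in pKO mice. Of 5 mesothelial markers with enough tags 2 were higher, with sums of 719 to 1056 and 829 to 1797. The most abundant were Krt19 at 374 and 610, which was counted as higher, and Lrrn4 at 175 and 221, which was not. Among endothelial markers 1 of 7 was higher, with sums of 4771 to 6965 and 5073 to 6500, and the most abundant were Cdh5 at 1384 and 1877 and Pecam1 at 1342 and 1033. None of 2 lymphocyte markers was counted, with sums of 239 to 299 and 229 to 443, led by Cd79a at 109 and 128 and Cd79b at 103 and 108.

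**Figure D5:**
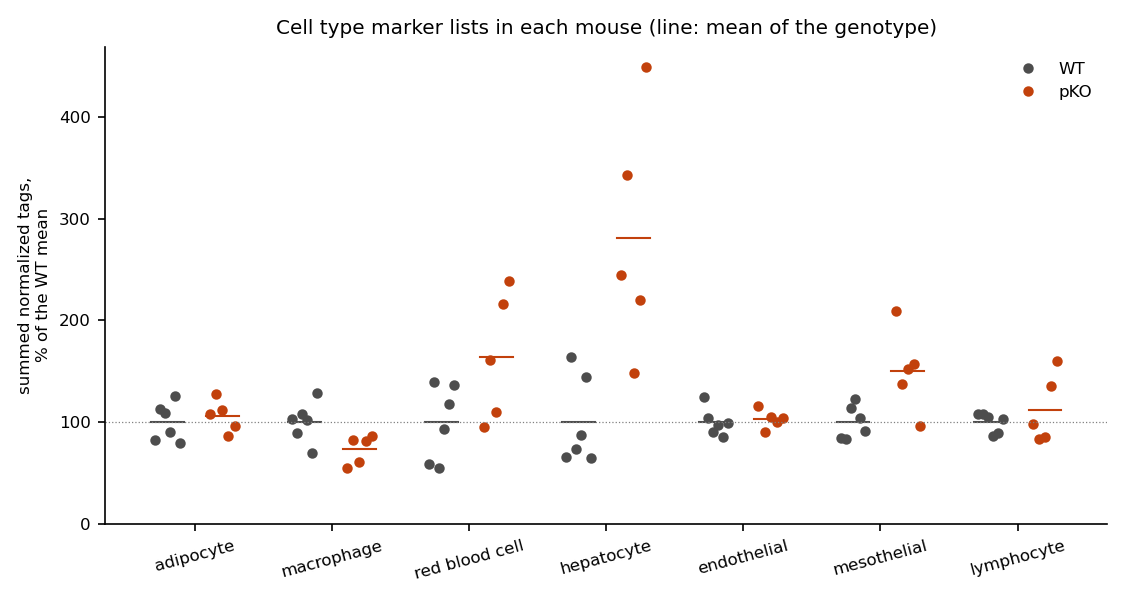
Summed normalized tags of each cell type marker list in each mouse, as a percent of the WT mean of the list (vertical axis, linear from 0), for WT (grey, n = 6) and pKO (orange, n = 5), with a line at each genotype mean. The macrophage sum was 9995 to 15795 in pKO and 12625 to 23423 in WT mice, and the hepatocyte sum is nearly all Alb.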

How the data were processed

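RNA from eWAT of 6 WT and 5 pKO mice was made into SAGE libraries and sequenced on a SOLiD system. The authors mapped tags with their own adaptation of the SOLiD SAGE program, and the submitters' processing notes name mm10 and edgeR 3.2.3. The deposited values are a signal per gene, tag counts divided by a library size factor. Whole tags were recovered for 100% of values in every library (tolerance 0.05), and 1 tag was worth 0.836 to 1.19.

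Log2(value + 1) was fitted with limma 3.58.1 (trend, genotype only) over 15453 genes, with Benjamini-Hochberg adjustment over all of them. This scale understates changes of genes with few tags. A gene was counted where either genotype averaged at least 50, with an unadjusted p of at most 0.05, or an adjusted p of at most 0.1. Alternatives were edgeR 4.0.16 and DESeq2 1.42.0 on recovered tags, total-count and TMM scaling, pseudocounts of 0.5 and 10, a filter at a mean of 10, a minimum mean of 10 for the counts, a replicate block, and each mouse left out. The fits were tested on simulated counts.

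Members and lists were chosen with earlier results of these data known. Named were all members, wider genes counted at the unadjusted rule, up to 8 per direction, with the most abundant gene of each list, the 2 most abundant markers of each type and the 3 genes nearest in pattern to Tfr2 and to Hmox1. Other markers named, Emr1, Slc4a1 and the hepatocyte genes, were added after their values were seen. Sequences are from GENCODE M21. No pair of libraries agreed within counting noise (chi-square per degree of freedom at least 17.7). The sources used here name no sequencing batch, and a 3-tag floor was used for low counts. That floor covers counting error only.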

Additional observations from a re-analysis of the deposited data

Results flagged for a closer look

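Of 58 groups of values checked for a mouse far from the others of its genotype, 3 were picked out, where chance gives about 1 in 20, or 2.9. In pKO mice, replicate 2 was picked out for Tfr2, at 104 normalized tags beside 30.0 to 48.1 in the other 4. The same mouse was picked out for Hmox1, at 719 beside 183 to 315. In WT mice, replicate 4 was picked out for Steap4, at 3419 beside 2528 to 2657 in the other 5.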

How the results depend on the processing

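Of 170 alternative values of the members' log2 fold changes, 158 kept direction and side of an unadjusted p of 0.05, 7 lost the call (all Fth1), 2 gained it and 3 changed sign. Those 3 were Slc11a2 without pKO replicate 5 and Steap4 without WT replicate 4 or pKO replicate 1. With each mouse left out, Slc11a2 ran from -0.11 to 0.0096 and Steap4 from -0.12 to 0.022. The number of members higher in pKO mice was 1 with total-count scaling, in place of 2, and 1 to 2 with each mouse left out. The number lower was 2 to 3 with each mouse left out. For the wider lists, 2 genes were lower with edgeR and with DESeq2, in place of 4, and 2 to 6 with each mouse left out, where the 2 were Hp and Slc48a1 and 6 came without pKO replicate 2. The wider genes higher in pKO mice numbered 2 to 5 with each mouse left out. Replicate numbers did not pair the mice (mean correlation of deviations -0.0207 for equal and 0.00387 for different numbers). With the replicate block, which leaves out WT replicate 6, 2 members were lower and 2 higher, and 3 wider genes were lower and 5 higher, in place of 3. Without pKO replicate 2, genes counted at the adjusted rule went from 4 lower and 1 higher to 65 and 26, and DESeq2 with all mice counted 63 and 58. Total-count scaling moved the median log2 fold change of genes with a mean of at least 50 from 0.01 to -0.03. Depth limits Slc11a1, which could be followed in no fit with a filter at a mean of 10.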

Other observations

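Among the wider genes that reached the minimum mean of 50 but were not counted, 4 had log2 fold changes beyond 0.4 in size on uneven values, named after their values were seen. Cpox, an enzyme of heme synthesis, had 254 ± 115 normalized tags in the 6 WT mice and 164 ± 139 in the 5 pKO mice (mean ± SD), with an interval of -2.23 to 0.24 for the log2 fold change, and was counted as lower without pKO replicate 2. Slc22a17, a receptor for lipocalin 2, had 206 ± 42.8 and 161 ± 79.1, and was counted as lower without pKO replicate 5. Alas2, the red cell form of the first heme enzyme, had 112 ± 38.3 and 166 ± 88.0, and was counted as higher with the replicate block. Nfs1, the cysteine desulfurase of iron-sulfur assembly, had 856 ± 202 and 1135 ± 228, and was counted as higher with the replicate block and without WT replicate 2, WT replicate 3 or pKO replicate 5.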
